A study of Mus musculus with 15 samples.

Results

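The genes described here encode 8 proteins of mechanosensitive and acid-sensing channels in sensory neurons, 7 channel proteins and the channel partner Stoml3: Piezo1, Piezo2, Asic1, Asic2, Asic3, Stoml3, Tmem63b and Tmem63c. They were picked by symbol, and all 8 were among the 55573 genes of the count table. The table held RNA-seq counts of 15 right trigeminal ganglia (TG) of 10-week-old male CD1 mice. In every mouse the epithelium and anterior stroma of the right cornea had been removed within a 2 mm trephine mark, and the TG was taken after 12 days of treatment, given 3 times per day. The mice received vehicle (replicates 1 to 5), RvD6-standard, the resolvin D6 lipid written RvD6 here (replicates 6 to 10), or RvD6-isomer, a stereoisomer of it written RvD6si (replicates 11 to 15). All 3 groups were injured, so injury itself was not compared. RvD6si was a fraction purified from tears and corneal culture medium of mice, pooled over many animals. The labels do not say whether each sample came from 1 mouse, so p-values measure the spread between samples.

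Piezo channels open when the membrane is stretched, and Piezo2 is the main transducer of light touch in sensory neurons of the trigeminal and dorsal root ganglia. Acid-sensing ion channels (ASICs) are proton-gated sodium channels built of 3 subunits, and ASIC3 is known for its abundance in sensory ganglia and for its response to the mild acidity of inflamed tissue. Stoml3 is a stomatin-like membrane protein that makes Piezo channels more sensitive, and Tmem63b and Tmem63c belong to the OSCA/TMEM63 family of stretch- and osmolarity-sensitive channels. The cornea is innervated by TG neurons that respond to touch, acid and drying.

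The 15 samples held between 4125962 and 9903396 counts, with medians of 9147139 for vehicle, 7235362 for RvD6 and 6862705 for RvD6si. All 13 sensory neuron markers examined, Tubb3, Prph and Scn10a among them, had reads in every sample. Their summed CPM (counts scaled to a fixed library total) ranged from 14525 to 16591 in vehicle, from 8323 to 15570 in RvD6 and from 13351 to 17739 in RvD6si. With an unadjusted edgeR p under 0.05, 5 of the 13 were lower and 0 higher in RvD6 than in vehicle (median log2 fold change -0.32), against 5.99% and 7.63% of all genes. For RvD6si against vehicle 0 were lower and 1 higher (median 0.05), against 7.3% and 8.69%. None was called after adjustment. Exact permutation tests of the sums against vehicle gave unadjusted p of 0.0238 for RvD6 and 0.722 for RvD6si. The 8 markers of myelinated mechanoreceptor neurons, Ntrk2, Ntrk3 and Pvalb among them, also had reads throughout, at 1256 to 1623 CPM in vehicle, 1212 to 1587 in RvD6 and 1276 to 1560 in RvD6si. The 6 erythroid markers, 4 of them globin genes, summed to 2374 to 5045 CPM in vehicle, 5705 to 10516 in RvD6 and 932 to 11940 in RvD6si, where replicate 15 gave the highest value and the other samples reached at most 2601. The 6 skeletal muscle markers summed to 20.6 to 166 CPM in vehicle, 121 to 2883 in RvD6 and 17.4 to 33.2 in RvD6si. The 5 satellite glia markers, Fabp7 and Kcnj10 among them, summed to 6534 to 7924 CPM in vehicle, 4729 to 6430 in RvD6 and 4339 to 6317 in RvD6si. Every vehicle sum was thus above every treated sum. Gene by gene, the median log2 fold changes against vehicle were -0.10 for RvD6si and -0.21 for RvD6. At an unadjusted edgeR p under 0.05, 2 and 1 of the 5 were lower, against 7.3% and 5.99% of all genes. Adjusted, 0 were called. A score of the erythroid or the sensory neuron markers was a covariate in the fits given beside single genes. The erythroid sums of vehicle and RvD6 did not overlap, so these fits cannot separate that score well from the group. The part of the other lists in the results was not tested.

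Asic3 was by far the most abundant of the 8 transcripts in the TG, Stoml3 was not detected, and Piezo1 was the lowest of the 7 detected genes. To compare genes, counts were divided by exonic length and scaled to a fixed total per library (TPM). In vehicle TG Asic3 stood at 234 ± 51.5 TPM (SD, n = 5), at the 96.3 percentile of the genes tested. Tmem63b followed at 23.4 ± 6.90 TPM, Piezo2 at 23.3 ± 7.30 TPM, Tmem63c at 19.3 ± 4.63 TPM and Asic2 at 16.6 ± 4.40 TPM. The ranges of each neighbouring pair among these 4 genes overlapped in all 3 groups. Asic1, at 2.65 ± 1.31 TPM, had its highest sample below the lowest Asic2 sample, and Piezo1 was at 0.543 ± 0.427 TPM. The lowest Asic1 value, 0.868 TPM, was under the highest Piezo1 value, 0.948 TPM, although Asic1 exceeded Piezo1 within each of the 5 samples.

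**Figure D1:**
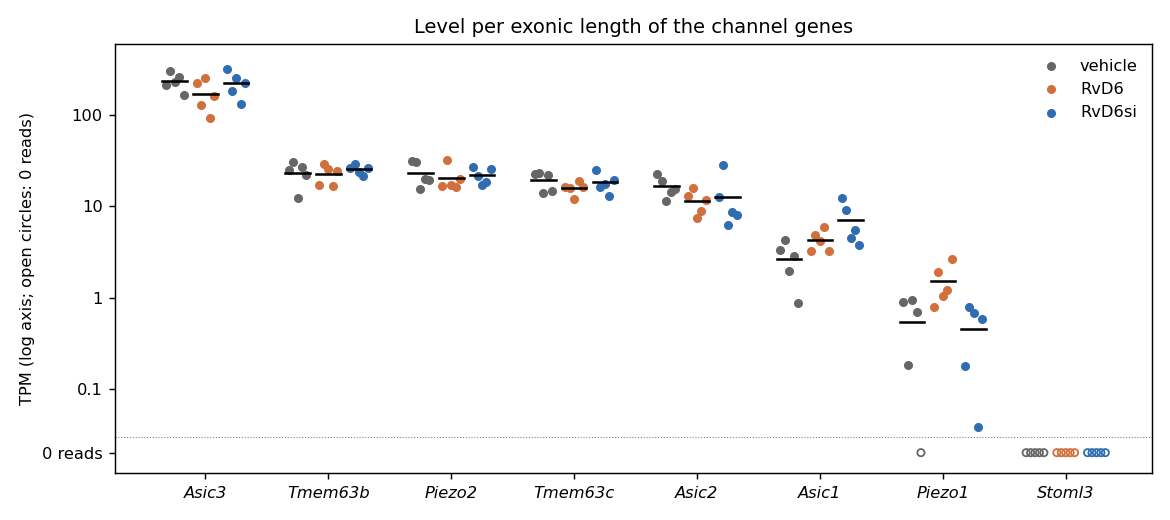
Level per exonic length (TPM, log axis) of the 8 genes in the 15 TG, with 1 point per sample, coloured by group, and a black bar at each group mean; open circles below the dotted line are samples with 0 reads. Asic3 lies above the other 7 genes in every group, and Stoml3 is at 0 reads in all 15 samples.

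The order of the mean levels was the same in the RvD6 and RvD6si groups. Asic3 was at 172 ± 66.8 TPM after RvD6 and 223 ± 70.4 TPM after RvD6si, and its lowest sample stayed above the highest Tmem63b sample in each group. Asic2 and Asic1 overlapped only in the RvD6si group, where Asic2 was at 12.8 ± 9.05 TPM and Asic1 at 7.07 ± 3.68 TPM. Asic1 and Piezo1 overlapped only in vehicle. Stoml3 (chromosome 3, 53488653 to 53508502, plus strand, GRCm38) had 0 reads in all 15 samples. At these depths a count of 0 in a single library allows up to 3 counts, which is 0.303 to 0.727 CPM per library, for counting error only. A level under this can thus give 0 reads in a library. Taken over all 15 libraries together, the level that 0 reads allow is lower than in a single library.

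The members' positions, from the annotation on GRCm38, bear on how well each was counted. Asic3 is compact, with 2423 exonic bases within 4444 bases of chromosome 5 (24413392 to 24417835, plus strand). Asic2 has 4264 exonic bases spread over 1088289 bases of chromosome 11 (80880169 to 81968457, minus strand). Asic1 lies on chromosome 15 (99670368 to 99701130, plus strand), Piezo2 on chromosome 18 (63010213 to 63387183, minus strand) and Tmem63c on chromosome 12 (87021340 to 87090043, plus strand), and none of these 5 genes shares exonic bases with another gene. Piezo1 (chromosome 8, 122481698 to 122551329, minus strand) shares 2441 of its 9935 exonic bases, 24.6%, with Ctu2 on the opposite strand. Tmem63b (chromosome 17, 45660171 to 45686905, minus strand) shares 394 of 5098 exonic bases, 7.73%, with Mrpl14 and Gm16172 on the opposite strand. The libraries were counted without strand and reads over exons of 2 genes were left out, so Piezo1 and Tmem63b were counted on the rest of their exons, where reads from antisense transcripts cannot be told apart from theirs.

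The main question was whether either lipid changed these genes in the TG of the injured side, and whether the stereoisomers differed. Of the 8 genes, 7 passed the filter on low counts and were tested by the quasi-likelihood test of edgeR, with Benjamini-Hochberg adjustment over all 16567 genes tested. None of the 7 had an adjusted p under 0.05 in any of the 3 comparisons. Over all genes, 0.67% were called between RvD6si and vehicle, 0.0% between RvD6 and vehicle, and 0.235% between RvD6si and RvD6. At an unadjusted p under 0.05, 1 member (Asic1) was higher and 0 were lower in RvD6si than in vehicle, against 8.69% and 7.3% of all genes. In RvD6 against vehicle 0 members were higher and 0 lower, against 7.63% and 5.99% of genes, and in RvD6si against RvD6 0 were higher and 1 (Piezo1) lower, against 4.18% and 4.64%. DESeq2 called 1 member, Asic1 between RvD6si and vehicle, where it called 8.13% of the genes to which it gave an adjusted p. It called 0 members in the other comparisons, against 1.92% and 0.936% of genes. For 0 members did the normalized counts of either lipid group lie clear of vehicle, which held for 4.88% of genes for RvD6si and 3.72% for RvD6.

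**Figure D2:**
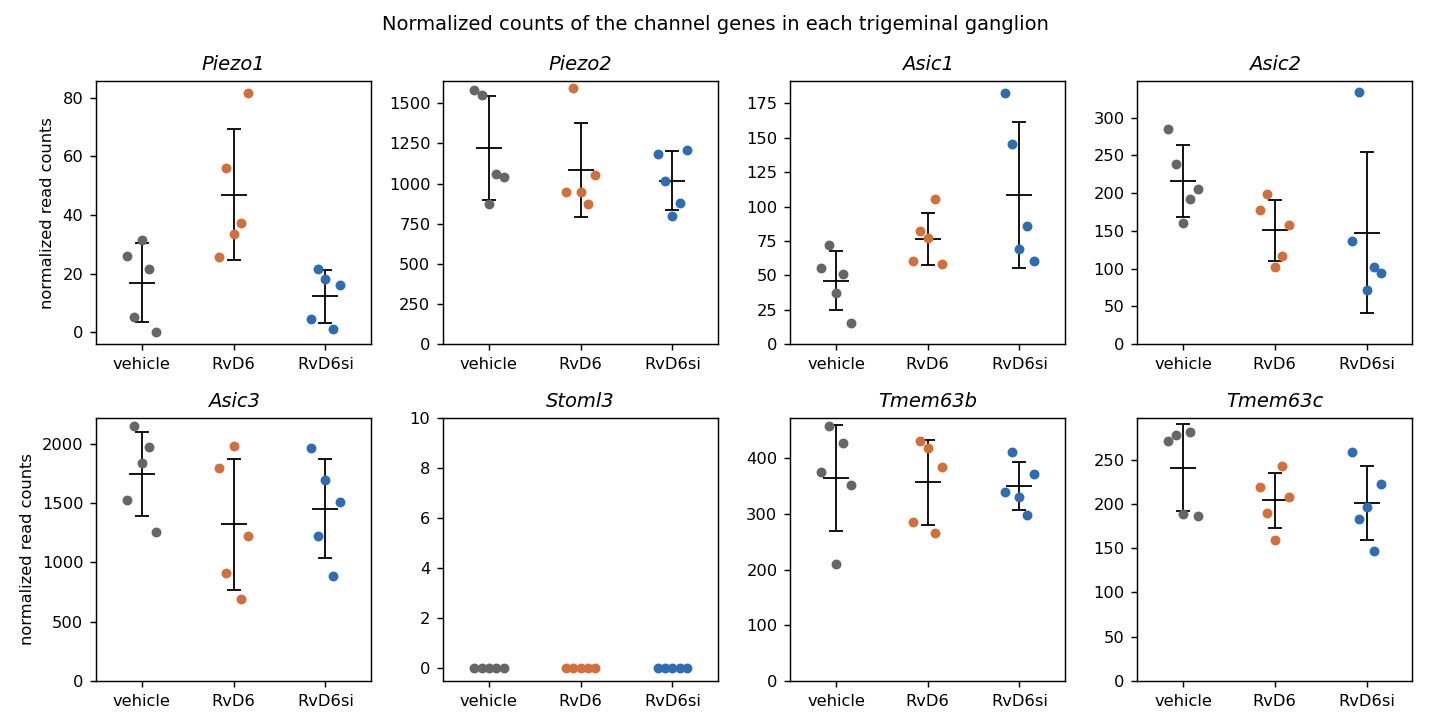
Normalized read counts (counts divided by the DESeq2 size factors) of each gene in the 15 TG, on linear axes that differ between genes, with 1 point per sample in replicate order and black bars for the mean and SD of 5 samples. The Piezo1 values of RvD6si lie below all those of RvD6, and the other pairs of groups overlap for each of the 7 detected genes.

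Asic1 had the largest increase among the members in RvD6si-treated TG. The gene encodes the ASIC subunit that is most widespread in central neurons and is also present in sensory ganglia. Normalized counts in the vehicle samples were 55.5, 72.1, 36.9, 51.2 and 15.6 in replicate order. The RvD6 samples gave 60.2, 82.0, 77.1, 105 and 58.4, and the RvD6si samples gave 183, 145, 69.4, 85.9 and 60.1. Thus 3 of 5 RvD6 samples and 3 of 5 RvD6si samples exceeded every vehicle sample, and the groups overlapped. The means were 46.3 ± 21.2 for vehicle, 76.6 ± 19.1 for RvD6 and 109 ± 53.1 for RvD6si (SD, n = 5). In a bulk ganglion, more cells of a type and more RNA per cell cannot be told apart.

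The log2 fold change of Asic1 between RvD6si and vehicle was 1.23 (SE 0.38, 95% interval 0.43 to 2.03), with an edgeR adjusted p of 0.117. DESeq2 gave 1.24 with an adjusted p of 0.0266, so the call depends on the tool. Each of the 15 fits that left out 1 sample kept an increase, from 0.96 without RvD6si replicate 11 to 1.44, and edgeR adjusted p ranged from 0.0922 to 0.330. Between RvD6 and vehicle the log2 fold change of Asic1 was 0.71 (95% interval -0.09 to 1.51, edgeR adjusted p = 0.429). A two-sided exact permutation test of normalized counts, unadjusted over 21 such comparisons, gave p = 0.0238 for RvD6si and p = 0.0397 for RvD6, where 0.00794 is the smallest p that 5 against 5 samples can give. With a score of the sensory neuron markers as a covariate the RvD6si difference was 1.23 (edgeR adjusted p = 0.116), and with a score of the erythroid markers, a fit added after seeing the data, it was 1.05 (edgeR adjusted p = 0.211).

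Asic2 values were lower on average after both lipids without a call. Its protein joins ASIC1 and ASIC3 in mixed channels and alters their acid sensitivity. Vehicle samples had normalized counts of 286, 238, 160.5, 193 and 206. RvD6 samples had 178, 198, 102, 117 and 158, and RvD6si samples had 137, 334, 72.1, 102 and 94.3. In the RvD6si group replicate 12 was above all vehicle samples and the other 4 were below all of them. The log2 fold change was -0.55 for RvD6si against vehicle (95% interval -1.26 to 0.16, edgeR adjusted p = 0.445) and -0.54 for RvD6 against vehicle (95% interval -1.24 to 0.17, edgeR adjusted p = 0.513). Without RvD6si replicate 12 the first of these became -1.10, with an edgeR adjusted p of 0.0481.

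Asic3, the dominant ASIC transcript, had overlapping groups and no call in any comparison. Vehicle samples had normalized counts of 1531, 2148, 1835, 1971 and 1258. The RvD6 samples had 1795, 913, 1979.6, 692 and 1220.1, and the RvD6si samples had 1964, 1225, 1692, 881 and 1507. The RvD6 group held both a value of 1979.6 and the lowest value of all 15 samples, 692 in replicate 9. That replicate also had the lowest summed sensory neuron markers, 8323 CPM. The next lowest sums, 9579 CPM in RvD6 replicate 10 and 11810 CPM in RvD6 replicate 7, went with Asic3 values of 1220.1 and 913. Other samples went the other way. RvD6si replicate 14 had an Asic3 value of 881 with a sum of 15841 CPM. Vehicle replicate 5 had the lowest vehicle value, 1258, with the highest vehicle sum, 16591 CPM. The means were 1748 ± 355 for vehicle, 1319.8 ± 555 for RvD6 and 1454 ± 418 for RvD6si (SD, n = 5). The log2 fold change was -0.27 for RvD6si against vehicle (edgeR adjusted p = 0.664) and -0.42 for RvD6 against vehicle (edgeR adjusted p = 0.511). With the sensory neuron score as a covariate the RvD6 value was 0.03 and the RvD6si value was -0.33. The cause of the Asic3 differences was not tested.

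The make-up of the ASIC transcripts in each ganglion was described by the share of each subunit in the summed TPM of Asic1 to Asic5. Asic3 made up 92.3% ± 2.15 in vehicle, 90.5% ± 4.31 in RvD6 and 91.4% ± 5.19 in RvD6si (SD, n = 5). Asic2 made up 6.74% ± 2.10, 6.74% ± 2.96 and 5.64% ± 4.25. Asic1 made up 0.998% ± 0.369, 2.71% ± 1.75 and 2.96% ± 1.22. The Asic1 shares of the vehicle samples were 1.37, 1.31, 0.802, 1.03 and 0.478%, those of RvD6 1.32, 3.27, 1.57, 5.54 and 1.85%, and those of RvD6si 3.64, 4.16, 1.66, 3.71 and 1.601%. All 5 RvD6si shares and 4 of 5 RvD6 shares were above every vehicle share, given here as a description. How often such shares separate the groups for other genes was not computed. The normalized counts of Asic1 overlapped between each lipid group and vehicle. The Asic1 shares fall when Asic3 rises in the same sample, so they are not independent of the Asic3 values above. Asic4 had at most 1 read in any sample, and Asic5 had none.

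**Figure D3:**
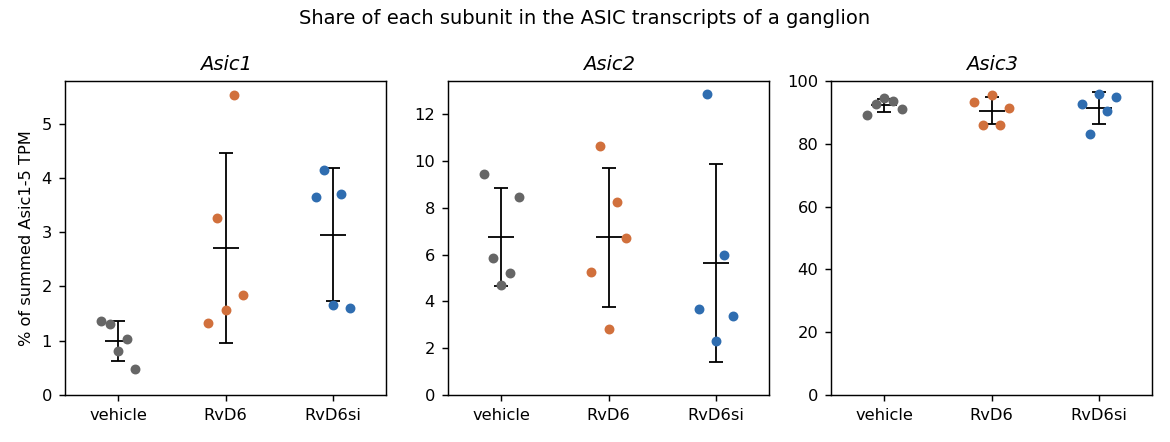
Share (%) of Asic1, Asic2 and Asic3 in the summed TPM of Asic1 to Asic5 in each TG, with 1 point per sample and black bars for the mean and SD of 5 samples; the axes start at 0 and differ between genes. The Asic1 share spans 0.478 to 1.37% in vehicle, 1.32 to 5.54% in RvD6 and 1.601 to 4.16% in RvD6si, with no background over other genes computed. Asic3 makes up at least 83.0% in every sample.

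Piezo1 differed most between the 2 stereoisomers, at very low counts. Its protein is a stretch-activated channel found in endothelial cells and red cells, among other cells. The raw counts were 36, 6, 39, 22 and 0 in vehicle, 33, 62, 24, 30 and 81 in RvD6 and 4, 27, 20, 1 and 10 in RvD6si. Normalized, the vehicle samples gave 26.0, 5.34, 31.3, 21.6 and 0. The RvD6 samples gave 25.8, 55.9, 33.6, 37.2 and 81.5, and the RvD6si samples gave 4.52, 21.6, 18.3, 1.03 and 16.3. All 5 RvD6si values were below all 5 RvD6 values, which held for 1.09% of all genes tested (1.74% in either direction), and 4 of 5 RvD6 values were above every vehicle value.

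The log2 fold change of Piezo1 between RvD6si and RvD6 was -1.90 (SE 0.80, 95% interval -3.59 to -0.21), with an edgeR adjusted p of 0.493. The exact permutation test gave p = 0.00794, the smallest it can give and unadjusted. Between RvD6 and vehicle the log2 fold change was 1.45 (95% interval -0.19 to 3.10, edgeR adjusted p = 0.433), and between RvD6si and vehicle it was -0.45 (95% interval -2.12 to 1.22, edgeR adjusted p = 0.835). The RvD6 group is shared by both of its comparisons. The edgeR biological coefficient of variation of Piezo1 was 0.808, higher than that of 89.5% of genes and above the median of 0.337. The other 6 members tested lay between 0.224 for Tmem63c and 0.413 for Asic1.

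Markers of other cell types also differed between RvD6 and the other groups. All 6 erythroid markers had an unadjusted edgeR p under 0.05 and were higher in RvD6 than in vehicle, and 0 of them had an adjusted p under 0.05. In RvD6si against RvD6 all 6 were lower at an unadjusted edgeR p under 0.05, and 0 had an adjusted p under 0.05. The 6 skeletal muscle markers were all higher in RvD6 than in vehicle at an unadjusted p under 0.05 (median log2 fold change 4.29, 0 with an edgeR adjusted p under 0.05), and all 6 were lower in RvD6si than in RvD6 with an edgeR adjusted p under 0.05 (median -5.50). In RvD6si against RvD6, 4 of 6 macrophage markers (median -0.65) and 2 of 5 fibroblast markers (median -0.47) were also lower at an unadjusted p under 0.05. At that threshold 7.63% of all genes were higher in RvD6 than in vehicle and 4.64% lower in RvD6si than in RvD6. Adjusted, 0.0% and 0.235% were called. Exact permutation tests of summed CPM, RvD6si against RvD6, gave unadjusted p of 0.0556 (erythroid), 0.00794 (muscle), 0.151 (macrophage) and 0.135 (fibroblast). The part of the muscle, macrophage, fibroblast and endothelial markers in the Piezo1 values was not tested. RvD6si replicate 15, with 11940 CPM of erythroid markers, had a Piezo1 normalized count of 16.3, from 10 raw reads. It is a single sample and the library with the fewest counts, 4125962. The other RvD6si samples had 932 to 2601 CPM of erythroid markers and Piezo1 values of 1.03 to 21.6. The 6 endothelial markers summed to 92.3 to 164 CPM in vehicle, 108 to 146 in RvD6 and 110 to 130 in RvD6si. These 3 ranges overlapped. The median log2 fold changes of these markers were 0.59 for RvD6 and 0.18 for RvD6si, each against vehicle, and -0.40 for RvD6si against RvD6. At an unadjusted edgeR p under 0.05, 1 of 6 was higher and 1 lower in RvD6 than in vehicle, against 7.63% and 5.99% of genes. In the other comparisons 0 of 6 passed. With the sensory neuron score as a covariate the Piezo1 difference between RvD6si and RvD6 was -1.45 (SE 1.08, edgeR adjusted p = 0.879). With the erythroid score it was -1.08 (SE 1.27, edgeR adjusted p = 0.999).

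**Figure D4:**
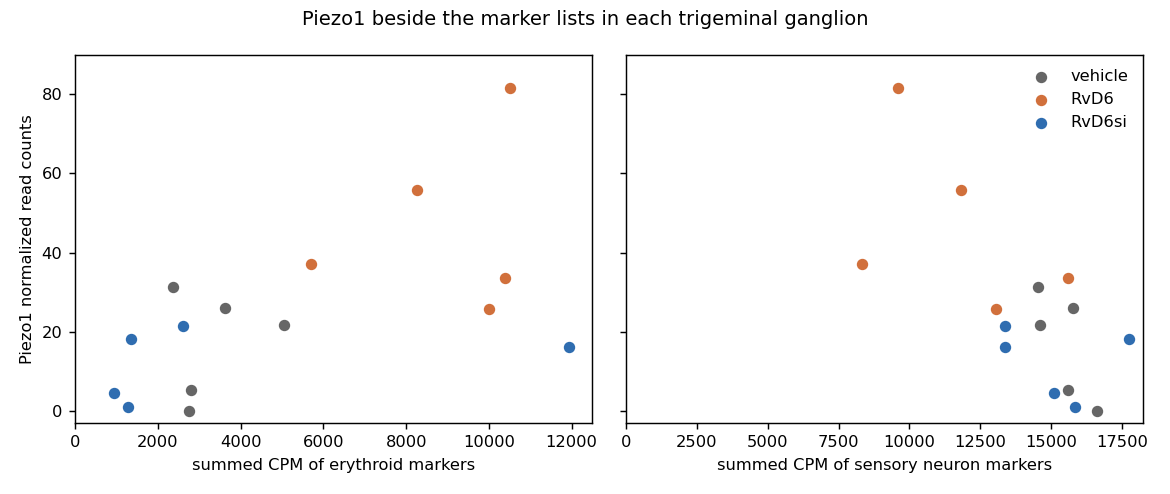
Piezo1 normalized counts of the 15 TG against the summed CPM of 6 erythroid markers (left) and of 13 sensory neuron markers (right), with 1 point per sample coloured by group. The RvD6 samples lie at 5705 to 10516 CPM of erythroid markers. RvD6si replicate 15 lies at 11940 CPM with a Piezo1 count of 16.3, from 10 raw reads, and the other RvD6si samples lie at 932 to 2601 CPM.

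Piezo2, the touch channel of mechanoreceptor neurons, was well counted and showed no called difference. Vehicle samples had normalized counts of 1580.4, 1553, 874, 1059 and 1044. The RvD6 samples had 946, 1598, 949.9, 874 and 1056, and the RvD6si samples had 1186, 1018, 799.6, 878 and 1209. Vehicle replicates 1 and 2 and RvD6 replicate 7 stood at 1553 to 1598 and the other 12 samples at 799.6 to 1209. The log2 fold change was -0.27 for RvD6si against vehicle (95% interval -0.68 to 0.14, edgeR adjusted p = 0.534). For RvD6 against vehicle it was -0.19 (95% interval -0.60 to 0.22, edgeR adjusted p = 0.716). With the trend on gene length removed, the intervals lay off 0 without a call. The values were then -0.37 for RvD6si (-0.66 to -0.09, edgeR adjusted p = 0.210) and -0.37 for RvD6 (-0.65 to -0.08, edgeR adjusted p = 0.280).

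Neither gene of the TMEM63 pair showed a called difference. Tmem63b normalized counts were 375, 457, 210.2, 428 and 351 in vehicle. They were 285, 431, 419, 265 and 384 in RvD6 and 339.9, 411, 330.4, 298 and 372 in RvD6si, and the 3 groups overlapped throughout. Its log2 fold change was -0.06 for RvD6si (95% interval -0.48 to 0.36) and -0.05 for RvD6 (95% interval -0.47 to 0.38), so changes of the size estimated for Asic1 lie outside both intervals. Both signs changed when some single samples were left out. Tmem63c normalized counts were 271, 278, 189, 281 and 187 in the vehicle samples. The RvD6 samples had 219.6, 190.2, 159.7, 243 and 207, and the RvD6si samples 259, 183, 196, 147 and 223. Its log2 fold change was -0.27 for RvD6si (95% interval -0.68 to 0.15, edgeR adjusted p = 0.540) and -0.26 for RvD6 (95% interval -0.67 to 0.16, edgeR adjusted p = 0.603).

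The stereoisomers were compared directly for each gene. Apart from Piezo1, the log2 difference of RvD6si from RvD6 was 0.52 for Asic1 (95% interval -0.27 to 1.30) and 0.15 for Asic3 (95% interval -0.40 to 0.70). It was -0.08 for Piezo2 (-0.49 to 0.33), -0.02 for Asic2 (-0.73 to 0.69), -0.02 for Tmem63b (-0.44 to 0.41) and -0.01 for Tmem63c (-0.43 to 0.40). The intervals of Piezo2, Tmem63b and Tmem63c stay within 0.50 on either side of 0, while those of Asic1 and Asic2 reach 1.30 and -0.73. Each of these 6 differences between the lipids changed sign under at least 1 alternative. The medians over the 7 members were -0.27 for RvD6si and -0.19 for RvD6, each against vehicle, and -0.02 between the lipids, beside 0.02, 0.02 and 0.00 over all genes.

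**Figure D5:**
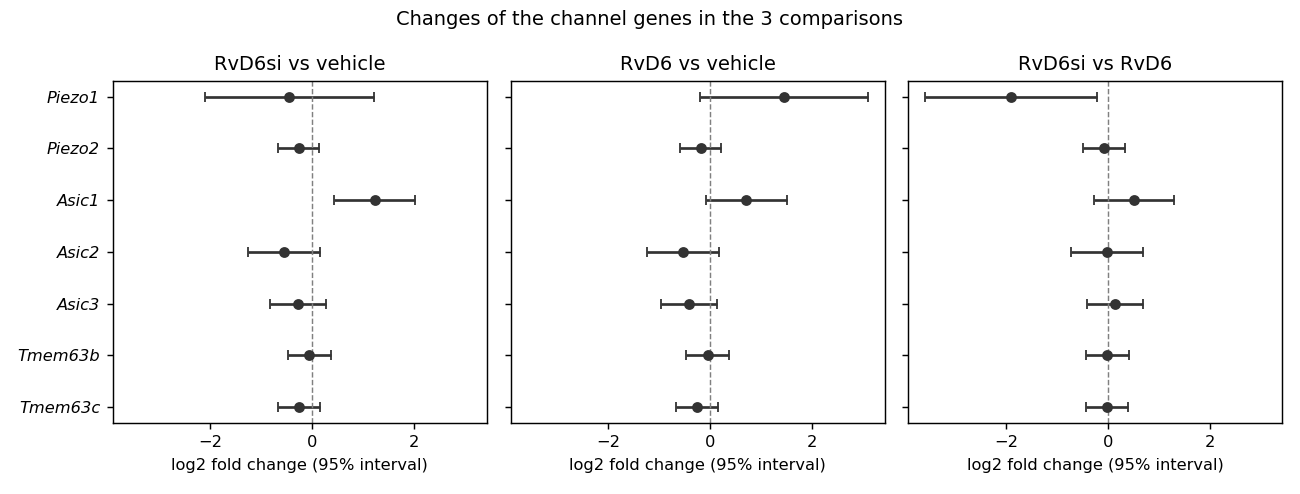
Log2 fold changes of the 7 genes tested in the 3 comparisons, from the edgeR fit of all 15 samples; points are estimates, bars are 95% intervals and the dashed line marks no difference. The interval lies off 0 for Asic1 between RvD6si and vehicle (0.43 to 2.03) and for Piezo1 between RvD6si and RvD6 (-3.59 to -0.21).

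Partners of these channels and other sensors were read from a pair of lists. Of 17 further mechanosensitive channels and regulators, 14 were tested (not Mdfi, Tmc1 and Tmc2). None had an edgeR adjusted p under 0.05 in any comparison. Unadjusted, 4 were higher and 1 lower in RvD6si than in vehicle, 1 higher and 3 lower in RvD6 than in vehicle, and 1 higher and 0 lower in RvD6si than in RvD6. The shares of all genes in these directions were 8.69% and 7.3%, 7.63% and 5.99%, and 4.18% and 4.64%. The median log2 fold changes of the list were 0.47, 0.16 and 0.36, beside 0.02, 0.02 and 0.00 over all genes. DESeq2 called 3 of them, Mtmr2, Tmem87a and Stoml2, in RvD6si against vehicle, where it called 8.13% of genes, and 0 in the other comparisons.

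Mtmr2, a phosphoinositide phosphatase that restrains Piezo2, had 313 ± 45.2 normalized counts in vehicle and 576 ± 186 in RvD6si (log2 fold change 0.88, edgeR adjusted p = 0.0706). Tmem87a, a Golgi membrane protein linked to mechanosensitive currents, had a log2 fold change of 1.14 (edgeR adjusted p = 0.117) and Kcnk2, the stretch-activated potassium channel TREK-1, one of 1.14 (edgeR adjusted p = 0.205). Atp2a2, the calcium pump SERCA2 that binds Piezo1, had 0.48 (edgeR adjusted p = 0.221). Stoml2, the mitochondrial relative of stomatin, was lower, on average, after both lipids, at -0.52 for RvD6si and -0.49 for RvD6 (edgeR adjusted p = 0.119 and 0.204). Stom, the stomatin that binds ASICs, had 54.5 ± 20.7 normalized counts in vehicle and 120.3 ± 41.6 in RvD6 (log2 fold change 1.13, edgeR adjusted p = 0.189). Stoml1, which inhibits ASIC1, had -0.65 for RvD6 (edgeR adjusted p = 0.189). Kcnk4, the stretch-activated potassium channel TRAAK, had -0.93 for RvD6 against vehicle and 0.95 for RvD6si against RvD6 (edgeR adjusted p = 0.321 and 0.496).

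Of 11 further acid sensors and their partners, 7 were tested (not Asic4, Asic5, Gpr132 and Kcnk9), and none had an edgeR adjusted p under 0.05. Unadjusted, 1 was higher in RvD6si than in vehicle, 1 higher and 2 lower in RvD6 than in vehicle, and 1 higher and 1 lower in RvD6si than in RvD6. Over all genes the shares were 8.69% higher in the first comparison, 7.63% higher and 5.99% lower in the second, and 4.18% higher and 4.64% lower in the third. Their median log2 fold changes were 0.03, 0.20 and 0.10, and DESeq2 called 1 of them in RvD6 against vehicle, where it called 1.92% of genes, and 0 in the other comparisons. Gpr65, the proton-sensing receptor of immune cells, had 4.83 ± 5.18, 32.6 ± 25.6 and 4.93 ± 4.89 normalized counts for the vehicle, RvD6 and RvD6si samples (log2 fold change between RvD6 and vehicle 2.71, edgeR adjusted p = 0.259). The macrophage markers summed to 74.2 to 115 CPM in vehicle, 71.6 to 129 in RvD6 and 52.4 to 112 in RvD6si. In RvD6si against RvD6 4 of 6 of them were lower at an unadjusted edgeR p under 0.05, as was Gpr65 (log2 fold change -2.69, edgeR adjusted p = 0.419), and their part in the Gpr65 values was not tested. Otop1, a proton channel, had a log2 fold change of 1.29 in RvD6si against vehicle (edgeR adjusted p = 0.209), and Tmem206, the proton-activated chloride channel, had -0.74 in RvD6 against vehicle (edgeR adjusted p = 0.340).

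The members varied together only in part. With group means removed, 20 of the 21 pairs of members had a positive Pearson correlation of log2 CPM over the 15 samples, with a median r of 0.21. The highest was r = 0.63 between Piezo2 and Tmem63b, and the lowest was r = -0.15 between Asic2 and Asic3. Among all other genes tested, and with the groups left in, the pattern most like that of Asic3 was Hcn3, a hyperpolarization-activated channel gene (r = 0.84, 15 samples), followed by Cntn6 (r = 0.81). Asic1 was most like Sdc3 (r = 0.91) and Wdr19 (r = 0.90), and Asic2 most like Dlg4, the postsynaptic scaffold PSD-95 (r = 0.84), and Aprt (r = 0.82). Piezo2 was most like Hectd4 (r = 0.87) and Afdn (r = 0.85), and Piezo1 most like Akna (r = 0.89) and Parp14 (r = 0.86). Tmem63b was most like Ice1 (r = 0.88) and Ints1 (r = 0.86), and Tmem63c most like 6330411D24Rik (r = 0.86) and Adgra2 (r = 0.77). These values are the highest of 16566 genes for each member and share library and depth, so they serve as a description only.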

How the data were processed

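Total RNA of 15 TG was reverse transcribed from oligo-dT primers, amplified by an adapted Smart-seq2 protocol and made into Nextera XT libraries, which keep no strand. The authors aligned the reads to GRCm38 with Rsubread in R 3.6.1 and deposited raw read counts per gene from featureCounts with GENCODE release 22 and no strand option. The submitters' processing notes give Subread 1.6.5 and the table header 1.5.0-p1. The table also holds exonic lengths, from which TPM was computed. Symbols came from GENCODE release 21, which names 99.7% of the identifiers. Positions and shared exonic bases came from the exon coordinates given with the deposited counts.

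The treatment named in each title gave the group. The 3 comparisons were tested in edgeR 4.0.16 (R 4.3.3, limma 3.58.1) in 1 fit of all 15 samples, with TMM normalization, the edgeR filter (minimum count 10, minimum total 15), a quasi-likelihood test and a threshold of 0.05. SEs are the log2 fold change over the square root of F. Normalized counts are counts over DESeq2 1.42.0 size factors, compared by exact permutation (SciPy 1.17.1). DESeq2 tests, other normalizations, filters, trend removal on length or GC (lowess, span 0.3), marker covariates and each sample left out were alternatives. Named genes are the members, the 2 genes most like each, and listed related genes with an unadjusted p under 0.05, of which 1 is not reported here. The members and lists were chosen with earlier results of these data known. The edgeR and DESeq2 steps were tested on simulated data. Replicates of a group differed beyond sampling noise (chi-square per degree of freedom 11.3 to 49.2 over 30 pairs).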

Additional observations from a re-analysis of the deposited data

Results flagged for a closer look

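The extreme sample of each group of 5 was compared with its neighbours for the 7 detected genes in 3 groups, 21 groups in all, by Dixon's ratio of gap to range (critical value 0.71), which chance passes in about 1 group of 20. Piezo2 in RvD6 replicate 7 stood apart, at 1598 normalized counts against 874 to 1056 in the other 4 RvD6 samples, and without it the log2 difference of RvD6si from RvD6 was 0.09 in place of -0.08. Asic2 in RvD6si replicate 12 stood apart, at 334 normalized counts against 72.1 to 137 in the other 4 RvD6si samples. Without that sample, Asic2 had a log2 fold change of -1.10 between RvD6si and vehicle (edgeR adjusted p = 0.0481), against -0.55 with it.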

How the results depend on the processing

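No paired analysis was possible because the replicate numbers of the 3 groups differ. The number of members called between RvD6si and vehicle was 0 with edgeR and 1 (Asic1) with DESeq2 on all 15 samples or on the 2 groups only, where DESeq2 called 920 of 11321 and 979 of 11293 genes. It was 0 to 1 when each sample was left out, with Asic2 called without RvD6si replicate 12, where edgeR called 168 of 16929 genes. The number of genes called over these 15 fits ranged from 0, without RvD6si replicate 11, to 229, without RvD6 replicate 9. No member was called in the other comparisons under any alternative run. DESeq2 gave Piezo1 no adjusted p between RvD6si and vehicle, and a minimum of 10 counts in every sample left Piezo1 without a value.

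These differences changed sign, and the cause was not tested. Between RvD6 and vehicle, the sensory neuron covariate gave 0.034 for Asic3 and 0.15 for Tmem63b. Between RvD6si and RvD6, the erythroid covariate gave 0.047 for Piezo2, -0.046 for Asic1, 0.075 for Asic2, 0.24 for Tmem63b and 0.034 for Tmem63c, and the sensory neuron covariate -0.37 for Asic3 and 0.17 for Tmem63c. There, edgeR on 2 groups gave 0.00043 for Asic2 and 0.0063 for Tmem63c, no filter 0.012 for Asic2, 0.013 for Tmem63b and 0.019 for Tmem63c, and removal of the GC trend 0.0080 for Tmem63c. With each sample left out, Tmem63b ranged from -0.20 to 0.029 for RvD6si against vehicle and from -0.19 to 0.045 for RvD6 against vehicle. Between RvD6si and RvD6 the ranges were -0.15 to 0.095 for Piezo2, -0.56 to 0.15 for Asic2, -0.0085 to 0.35 for Asic3, -0.10 to 0.057 for Tmem63b and -0.11 to 0.084 for Tmem63c. Of the members' fold changes under the alternatives, 37 reversed, 482 kept direction and call, and 3 gained a call. Stoml3, with 0 reads in all 15 samples, had no test, and the cause of its 0 reads was not tested. Piezo1 had 0 to 81 counts per sample.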
